A study of Caenorhabditis elegans with 6 samples.

Results

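The lipl genes of Caenorhabditis elegans encode lipases related to mammalian lysosomal acid lipase. The members were taken by name, lipl-1 to lipl-8, and all 8 were found among the 46778 gene IDs of the count tables. RNA of whole worms at the L4 larval stage had been sequenced from 5 groups, with 2 libraries in each. The groups were scav-4(unk59) fed Microbacterium sp. JUb74, WT fed Microbacterium sp. JUb74, scav-4(unk49) fed E. coli OP50, scav-4(unk59) fed E. coli OP50, and WT fed E. coli OP50. They are called unk59 on JUb74, WT on JUb74, unk49 on OP50, unk59 on OP50 and WT on OP50 here. E. coli OP50 is the standard laboratory food of the worm, and scav-4 encodes a scavenger receptor of the CD36 family. All groups were hatched without food and then grown on their bacteria to harvest. The labels do not say what lesion unk59 or unk49 carries, and unk49 on JUb74 was not analysed here. The study's stated question was how expression differs between scav-4 mutant strains and between these diets.

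Lysosomal acid lipases hydrolyse triglycerides and cholesteryl esters that reach the lysosome by endocytosis or by autophagy of lipid droplets, a process called lipophagy. In the worm intestine, which is also the main fat store, the transcription factor HLH-30 (the homolog of mammalian TFEB) activates lipl genes when food is withdrawn, and MXL-3 represses them in fed animals. LIPL-4 is known for a lipid signal that the fatty acid carrier LBP-8 takes to the nucleus, where the nuclear receptors NHR-49 and NHR-80 respond to it. The lysosome that holds these enzymes is kept acidic by the vacuolar proton pump, the v-ATPase.

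Of the 8 genes, 7 lie on chromosome V of the WBcel235 build and are protein-coding. lipl-1 (WBGene00010062) spans 12919986 to 12921692 on the plus strand, and lipl-2 (WBGene00009773) spans 9791567 to 9793241 on the plus strand. lipl-3 (WBGene00020016) spans 521595 to 524218 on the minus strand, and 23 of its exon bases are shared with srw-107 on the same strand. lipl-4 (WBGene00019376) spans 6550171 to 6552186 on the plus strand, and up to 120 of its exon bases are shared with genes on the opposite strand, among them the non-coding RNA gene K04A8.15. lipl-5 (WBGene00022642) spans 385746 to 387740 on the plus strand, lipl-6 (WBGene00021963) 6931475 to 6934312 on the minus strand, and lipl-8 (WBGene00013050) 14745684 to 14748708 on the minus strand. The member on chromosome IV is lipl-7 (WBGene00008510), also protein-coding, from 10239278 to 10241823 on the minus strand. The counts used here are of exon reads without regard to strand, so reads of lipl-4 and of its opposite-strand neighbours cannot be told apart except where the counting left them out as ambiguous.

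Each library had 21937088 to 22692632 read pairs counted in genes. Levels are given as CPM, the usual scaling of counts to library size, and levels of different genes are compared only as CPM per kb of exon. Differences are log2 fold changes with their standard error from edgeR's quasi-likelihood test, and a gene is called where its p-value, adjusted by Benjamini-Hochberg over the 15950 genes tested, is under 0.05. The targeted gene, scav-4 (WBGene00008692), had 34.7 ± 4.85 CPM in unk59 on JUb74, 21.5 ± 16.4 CPM in WT on JUb74, 6.60 ± 0.791 CPM in unk49 on OP50, 38.8 ± 0.737 CPM in unk59 on OP50 and 41.7 ± 7.86 CPM in WT on OP50 (SD, n = 2 each). Its log2 fold change in unk49 against WT, both on OP50, was -2.66 ± 0.466 (edgeR adjusted p = 0.00213). In unk59 it was not called against WT on OP50 (fitted log2 fold change -0.10, adjusted p = 0.956) or on JUb74 (0.69, adjusted p = 0.197). The RNA level of a gene does not check an allele that leaves the transcript in place.

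Markers of other tissues differed widely between groups that all carry the L4 label. The summed level of 10 oocyte and eggshell markers was 1386 to 1989 CPM in unk59 on JUb74, 10.7 to 14.6 CPM in WT on JUb74, 1642 to 4172 CPM in unk49 on OP50, 13.3 to 24.9 CPM in unk59 on OP50 and 77.8 to 79.8 CPM in WT on OP50. The sum of 11 germline markers was 462 to 752 CPM in unk59 on JUb74, 41.1 to 84.5 CPM in WT on JUb74, 832 to 1776 CPM in unk49 on OP50, 41.2 to 90.6 CPM in unk59 on OP50 and 318 to 383 CPM in WT on OP50. Both sums were therefore highest in unk49 on OP50 and unk59 on JUb74, which did not overlap with the other groups. The sum of 8 intestine markers was 7260 to 8987 CPM in unk59 on JUb74, 13711 to 24847 CPM in WT on JUb74, 17330 to 18890 CPM in unk49 on OP50, 18826 to 20106 CPM in unk59 on OP50 and 15047 to 17795 CPM in WT on OP50. The intestine was thus represented in every library, and at the lowest level in unk59 on JUb74. Yolk markers (6 genes) summed to 9721 to 14961 CPM in unk59 on JUb74, 5.35 to 23.0 CPM in WT on JUb74, 20590 to 40440 CPM in unk49 on OP50, 73.2 to 5410 CPM in unk59 on OP50 and 2058 to 4423 CPM in WT on OP50. Sperm markers (6 genes) reached at most 25.1 CPM, in unk59 on JUb74, and spe-38 was at 0 reads in both libraries of WT on JUb74 and in library 1 of unk59 on OP50. Muscle markers (5 genes) summed to 2097 to 3066 CPM in unk59 on JUb74 and 3370 to 3603 CPM in unk49 on OP50. They reached 6499 to 6675 CPM in WT on JUb74, 3748 to 7363 CPM in unk59 on OP50 and 5662 to 7865 CPM in WT on OP50. Neuron markers (6 genes) summed to 248 to 249 CPM in unk49 on OP50 and 305 to 479 CPM in the other groups. Coelomocyte markers (2 genes) summed to 16.5 to 19.3 CPM in unk59 on JUb74 and 2.11 to 7.29 CPM in the other groups. These sums stand beside every lipl result below, and their part in those results was not tested. In RNA of whole worms, fewer cells of a type and less RNA per cell cannot be told apart.

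**Figure D1:**
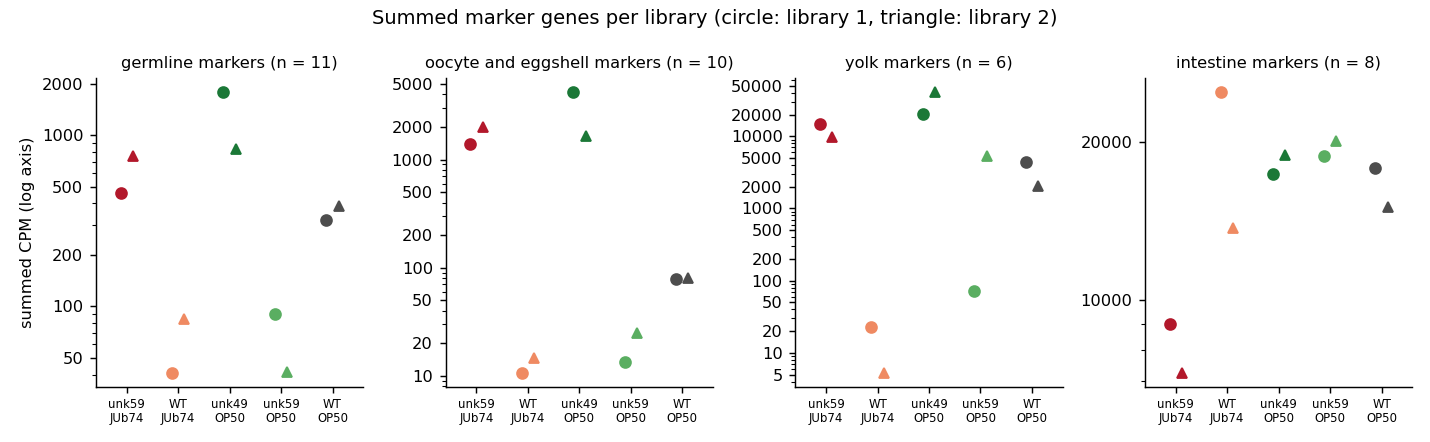
Summed CPM (log axis) of germline, oocyte and eggshell, yolk and intestine markers in each library, with circles for library 1 and triangles for library 2 of each group. Oocyte and eggshell markers reached at least 1386 CPM in unk59 on JUb74 and unk49 on OP50, and at most 79.8 CPM in the other groups.

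As a family, the lipl genes were most abundant in unk49 on OP50. Summed over all 8 members, the level was 260 and 202 CPM per kb in unk59 on JUb74 and 200 and 112 CPM per kb in WT on JUb74. On OP50 it was 764 and 1050 CPM per kb in unk49, 295 and 354 CPM per kb in unk59, and 379 and 205 CPM per kb in WT. Only the 2 unk49 libraries lay clear of all the others. lipl-5 was the most abundant member in every library. Its share of the family's CPM per kb was 86.2% and 85.8% in unk59 on JUb74, 56.1% and 66.3% in WT on JUb74, 74.4% and 72.9% in unk49 on OP50, 69.3% and 42.6% in unk59 on OP50, and 54.2% and 44.5% in WT on OP50. lipl-1 and lipl-2 supplied most of the remainder in the libraries grown on OP50. In unk59 on JUb74 the lipl-1 share was 1.65% and 1.37% and the lipl-2 share 1.53% and 2.08%, against 18.3% and 9.40% for lipl-1 and 16.9% and 3.72% for lipl-2 in WT on JUb74. The next most abundant member in unk59 on JUb74 was lipl-7, with 8.74% and 9.07%. These shares are descriptions of single libraries and carry no test.

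**Figure D2:**
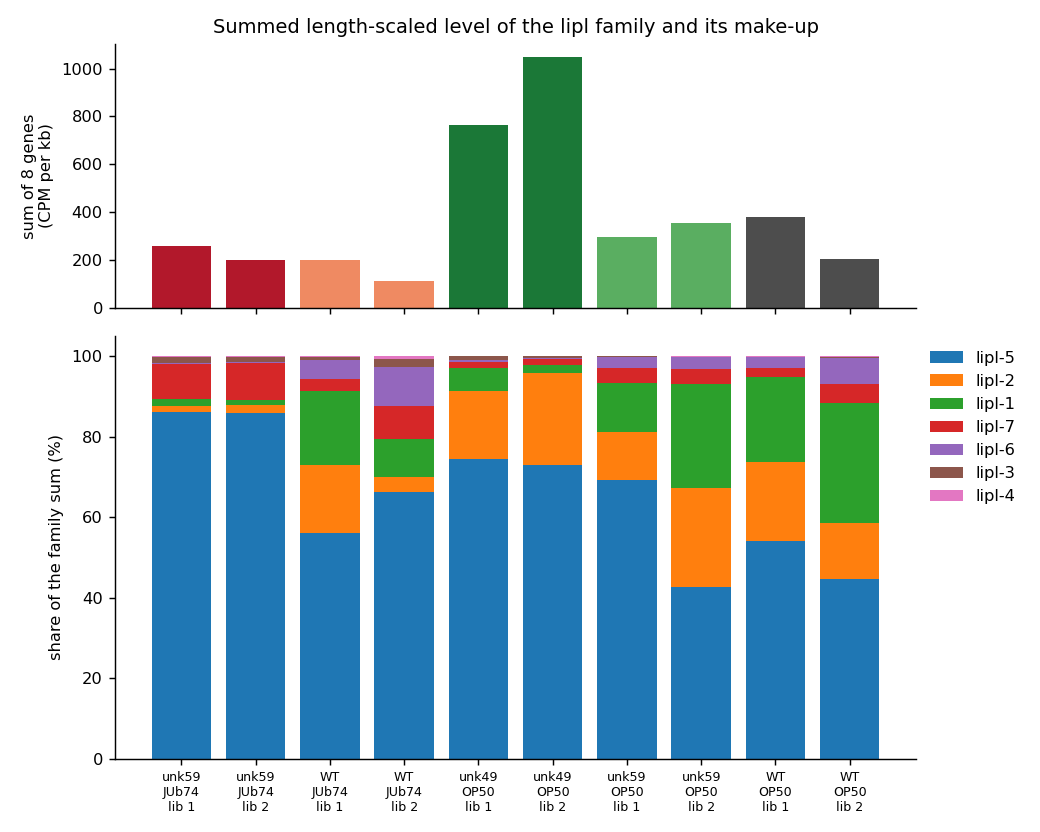
Upper panel, the summed level of the 8 lipl genes in CPM per kb of exon for each of the 10 libraries. Lower panel, the percent of that sum from each member, where lipl-5 makes up between 42.6% and 86.2% and lipl-1 and lipl-2 between 1.37% and 2.08% each in unk59 on JUb74.

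lipl-1 and lipl-2, which are known to be switched on by food withdrawal, were lowest in unk59 on JUb74. lipl-1 had 5.74 and 3.69 CPM in unk59 on JUb74, 48.9 and 14.1 CPM in WT on JUb74, 57.3 and 26.8 CPM in unk49 on OP50, 47.3 and 122.6 CPM in unk59 on OP50, and 106.8 and 81.6 CPM in WT on OP50. Going down the order of group means, WT on OP50, unk59 on OP50, unk49 on OP50 and WT on JUb74 each overlapped with the next, and unk59 on JUb74 lay below all of them. lipl-2 had 5.10 and 5.38 CPM in unk59 on JUb74, 43.3 and 5.31 CPM in WT on JUb74, 165.1 and 308.4 CPM in unk49 on OP50, 45.2 and 110.8 CPM in unk59 on OP50, and 94.3 and 36.5 CPM in WT on OP50. Only unk49 on OP50 stood apart for lipl-2, at the top, while all other neighbours in the order overlapped. In WT on JUb74 library 1 was 3.48 times library 2 for lipl-1 and 8.17 times for lipl-2. The same library of a pair was the higher one for both genes in WT on JUb74, unk59 on OP50 and WT on OP50, but not in unk49 on OP50 or unk59 on JUb74.

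lipl-3, a further target of HLH-30 and MXL-3, was a low-level gene with another order. It had 5.05 and 2.997 CPM in unk59 on JUb74, 2.69 and 3.099 CPM in WT on JUb74, 10.1 and 4.95 CPM in unk49 on OP50, 0.507 and 0.477 CPM in unk59 on OP50, and 0.367 and 1.04 CPM in WT on OP50. The 3 groups with the higher levels overlapped among themselves in the order, and the pair of lower groups, unk59 and WT on OP50, lay entirely below them. The lowest values rest on few reads, with 8 and 23 in WT on OP50 and 10 in each library of unk59 on OP50. lipl-4, the source of the lysosomal lipid signal, was lower still. It had 1.11 and 0.985 CPM in unk59 on JUb74, 0.336 and 1.19 CPM in WT on JUb74, 0.30 and 0.354 CPM in unk49 on OP50, 0.304 and 0.573 CPM in unk59 on OP50, and 0.504 and 0.450 CPM in WT on OP50. All neighbouring groups overlapped, and its 139 reads over all 10 libraries, with fewer than 10 in 4 of them, are the fewest of the members tested.

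lipl-5, an intestinal lysosomal lipase known to respond to food withdrawal, separated unk49 from the rest. It had 283.1 and 218.7 CPM in unk59 on JUb74, 141.8 and 93.5 CPM in WT on JUb74, 717.9 and 966.3 CPM in unk49 on OP50, 257.8 and 190.3 CPM in unk59 on OP50, and 258.8 and 115.1 CPM in WT on OP50. Both unk49 libraries exceeded every other library, and the other groups overlapped with their neighbours.

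lipl-6 differed by at most 1.24 times between the libraries of a group, less than the largest such ratio of any other member tested. It had 1.28 and 1.44 CPM in unk59 on JUb74, 18.3 and 21.0 CPM in WT on JUb74, 5.74 and 5.35 CPM in unk49 on OP50, 16.03 and 19.9 CPM in unk59 on OP50, and 21.0 and 25.7 CPM in WT on OP50. unk59 on JUb74 lay below unk49 on OP50, which lay below the other groups. lipl-7 ran the other way at its top end. It had 29.5 and 23.7 CPM in unk59 on JUb74, 7.64 and 12.1 CPM in WT on JUb74, 16.9 and 21.3 CPM in unk49 on OP50, 14.4 and 17.3 CPM in unk59 on OP50, and 10.7 and 12.5 CPM in WT on OP50. unk59 on JUb74 was above all other libraries, and both WT groups were below the mutants. By group mean, unk59 on JUb74 and unk49 on OP50 were lowest for lipl-6 and highest for lipl-7, and they had the highest oocyte and eggshell sums given above. For lipl-7, unk49 on OP50 overlapped with unk59 on OP50, where those sums were 13.3 to 24.9 CPM. A link between these sums and either gene was not tested.

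lipl-8 was at the limit of detection. It had 2 reads in library 2 of unk59 on OP50, 1 read in library 1 of WT on OP50 and 0 reads in the other 8 libraries. A count of 0 allows a level of up to 3 counts, which is 0.123 to 0.152 CPM per library, counting error only. It did not pass the filter on low counts and was not tested, so 7 members enter the counts that follow.

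**Figure D3:**
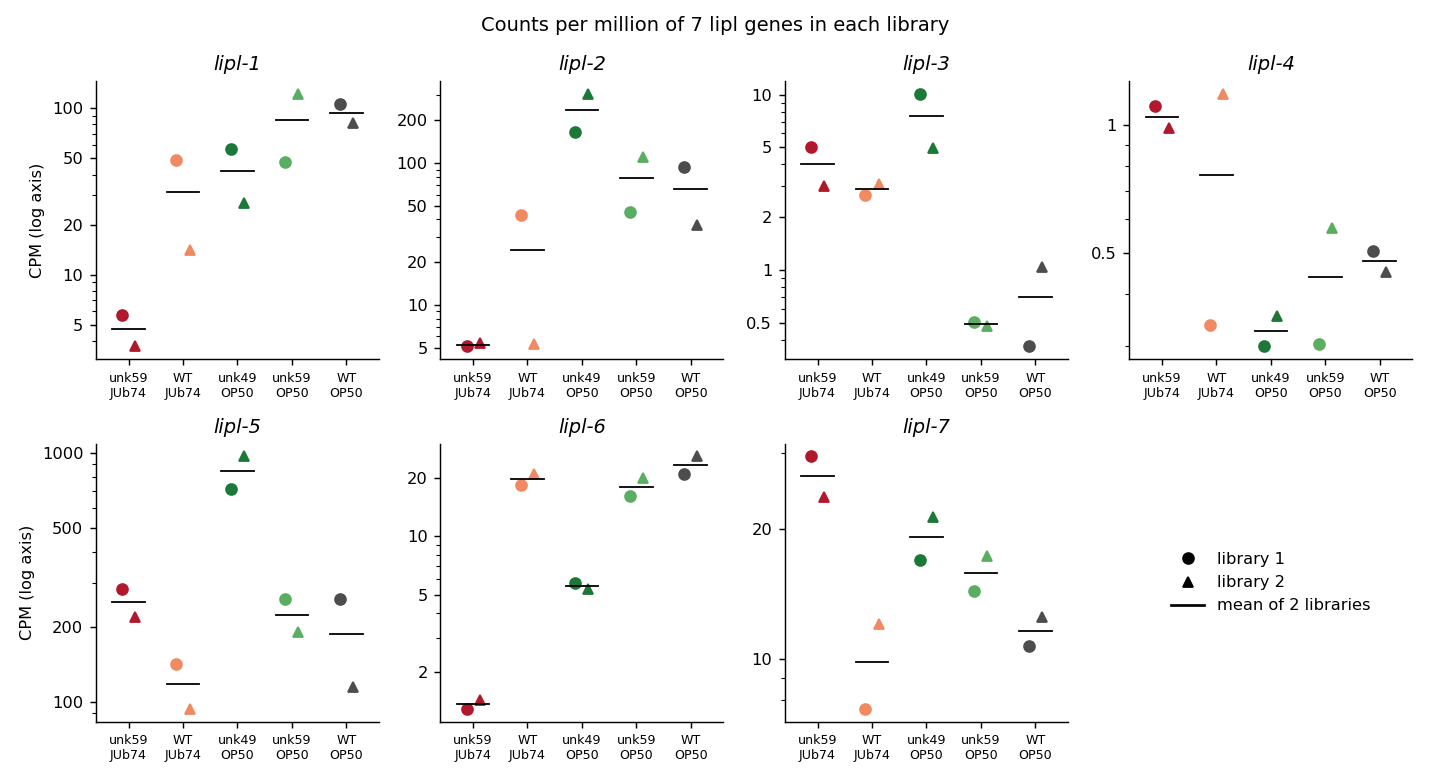
CPM (log axis, a separate scale for each panel) of the 7 lipl genes above the limit of detection, with circles for library 1, triangles for library 2 and a line at the mean of both. lipl-6 falls to 1.28 and 1.44 CPM in unk59 on JUb74 and lipl-5 reaches 717.9 and 966.3 CPM in unk49 on OP50.

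The first question was what the JUb74 diet did in the unk59 mutant. Of the 7 members tested, 5 were called, 3 lower and 2 higher on JUb74, where 59.8% of all genes tested were called, 33.5% higher and 26.3% lower. lipl-1 was lower on JUb74 by a log2 fold change of -4.17 ± 0.712 (edgeR adjusted p = 0.00109), lipl-2 by -3.90 ± 0.960 (adjusted p = 0.00784) and lipl-6 by -3.72 ± 0.248 (adjusted p = 2.95e-05). lipl-3 rose by 3.02 ± 0.571 (adjusted p = 0.00175) and lipl-7 by 0.75 ± 0.262 (adjusted p = 0.0331). The libraries of the diets did not overlap for any of these 5 genes. That comes from the same libraries as the calls and adds no support to them, and its share over all genes is not given here. lipl-5, the most abundant member, was not called, with a difference of 0.16 and a 95% interval of -0.67 to 1.0 on the log2 scale, and lipl-4 was not called at 1.24 (-0.11 to 2.59). Whether lipl-4 passed turned on WT on JUb74, which is on neither side of this comparison. Its libraries act on the result only through the scaling, the filter and the shared estimate of the spread. The median over the 7 members was 0.16, against 0.08 over all genes. Beside these changes, all 11 germline and all 10 oocyte and eggshell markers were called higher on JUb74 in unk59. Called lower were 6 of 8 intestine, 4 of 5 muscle and 2 of 6 neuron markers, and 0 of 6 yolk markers were called. The lipl-2 call was lost without library 1 of unk59 on JUb74 (adjusted p = 0.0539) and with no filter on low counts (adjusted p = 0.0543). The lipl-7 call held under 11 of 17 alternatives and was lost without any single library of unk59 or of WT on OP50.

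In WT the same diet change called 1 member of 7, where 8.94% of all genes were called, 2.65% higher and 6.29% lower. That gene was lipl-3, with 2.69 and 3.099 CPM on JUb74 against 0.367 and 1.04 CPM on OP50, a log2 fold change of 2.04 ± 0.545 (edgeR adjusted p = 0.0496). The call sits at the threshold and held under 5 of 16 alternatives, and it was lost when any library other than those of unk59 on OP50 was left out. lipl-1 (-1.58 ± 0.630, adjusted p = 0.156), lipl-2 (-1.43 ± 0.861, adjusted p = 0.351) and lipl-5 (-0.67 ± 0.374, adjusted p = 0.311) had negative fitted values that did not pass. lipl-1 was -2.75 without library 1 and -1.10 without library 2 of WT on JUb74, and DESeq2 called it (-1.63, adjusted p = 0.0392). lipl-2 was -3.63 without library 1 and -0.75 without library 2 of WT on JUb74, and -0.59 without library 1 of WT on OP50. Their 95% intervals were -3.01 to -0.16 for lipl-1, -3.39 to 0.53 for lipl-2 and -1.51 to 0.17 for lipl-5. lipl-6 differed by -0.25 with an interval of -0.72 to 0.22. The median over the members was -0.25, against -0.003 over all genes. In these worms 10 of 11 germline, 5 of 10 oocyte and eggshell and 5 of 6 yolk markers were called lower on JUb74. Called higher were 2 of 6 neuron markers, and 0 of 5 muscle markers were called. The 8 intestine markers had a median log2 fold change of -0.03.

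The diet response itself was compared between the genotypes by an interaction term, the change in unk59 minus the change in WT. It called 2 of 7 members, where 43.3% of all genes were called, 23.3% positive and 20% negative. lipl-6 had an interaction of -3.46 ± 0.320 (edgeR adjusted p = 0.000129, interval -4.19 to -2.74), which held under all 17 alternatives. The response of lipl-6 to JUb74 thus was -3.72 in unk59 and -0.25 in WT on the log2 scale. lipl-1 had an interaction of -2.59 ± 0.902 (adjusted p = 0.0440), which held under 5 of 17 alternatives. It was -1.42 without library 1 of WT on JUb74 and -1.74 without library 2 of unk59 on OP50, and leaving out any library except library 2 of WT on JUb74 or library 1 of unk59 on OP50 ended its call. lipl-2 had a fitted value of -2.47 ± 1.23 and was not called (adjusted p = 0.137), and it turned on the WT libraries on JUb74, being -0.27 without library 1 and -3.17 without library 2, where it passed (adjusted p = 0.0193). It was -1.68 without library 2 of unk59 on OP50, and on leaving out 1 library its adjusted p ran from 0.0193 to 0.850. The interaction of lipl-3, which was called within each genotype, was not called (0.98, interval -0.80 to 2.76). lipl-7 was just outside the threshold at 0.98 ± 0.373 (adjusted p = 0.0588), and 7 of 17 alternatives called it, with 1.49 (adjusted p = 0.0147) without library 2 of WT on JUb74. It was also called without either library of unk49. lipl-5 was not called at 0.83 (interval -0.36 to 2.02). All 11 germline, all 10 oocyte and eggshell and all 6 yolk markers were called in this interaction too, with positive values. With negative values, 3 of 8 intestine, 3 of 5 muscle and 5 of 6 neuron markers were called.

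Between genotypes on JUb74, 4 of 7 members were called in unk59 against WT, where 59.0% of all genes were called, 33.0% higher and 26.1% lower. lipl-6 was lower in unk59 by a log2 fold change of -3.85 ± 0.249 (edgeR adjusted p = 1.96e-05) and lipl-1 by -2.74 ± 0.677 (adjusted p = 0.00718). lipl-7 was higher by 1.43 ± 0.267 (adjusted p = 0.00152) and lipl-5 by 1.09 ± 0.377 (adjusted p = 0.0313). The lipl-6 and lipl-7 calls held under all 17 alternatives. The lipl-1 value was -1.57 without library 1 of WT on JUb74 and lost its call there (adjusted p = 0.0598), as it did without library 2 of unk59 on JUb74 (adjusted p = 0.0690). The lipl-5 call was lost without library 1 of unk59 on JUb74 (adjusted p = 0.147) or library 2 of WT on JUb74 (adjusted p = 0.134). lipl-2 had a fitted value of -2.21 ± 0.909 and was not called (adjusted p = 0.0638). That value turned on the WT libraries, being -0.02 without library 1 and -3.0 without library 2 of WT on JUb74, and the second of these passed the test (adjusted p = 0.00630). lipl-3 (0.47, interval -0.61 to 1.55) and lipl-4 (0.44, interval -0.82 to 1.70) were not called. lipl-4 was -0.18 without library 1 of WT on JUb74, and 1.67 without library 2, where it passed (adjusted p = 0.0462). The members' median was 0.44 and that of all genes 0.08. All 10 oocyte and eggshell, 11 germline and 6 yolk markers were called higher in unk59. Called lower were 5 of 8 intestine, 4 of 5 muscle and 4 of 6 neuron markers, and 1 muscle marker was called higher.

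On OP50, 0 of 7 members were called in unk59 against WT by edgeR, where 0.0125% of all genes were called. None of the 7 had an unadjusted p under 0.05, the smallest being 0.103, and DESeq2 also called 0. The fitted values ran from -0.51 for lipl-3 to 0.45 for lipl-7. The 95% intervals were narrowest for lipl-6 (-0.85 to 0.09) and lipl-7 (-0.14 to 1.04) and wider for lipl-2 (-1.66 to 2.17), lipl-3 (-1.92 to 0.91), lipl-4 (-1.57 to 1.34) and lipl-1 (-1.53 to 1.24). lipl-6 had 16.03 and 19.9 CPM in unk59 against 21.0 and 25.7 CPM in WT. Neither lipl-6 (edgeR adjusted p = 0.548) nor lipl-7 (adjusted p = 0.572) was called, although their libraries did not overlap between the genotypes. With 2 libraries in each group such a gap is no test, and its share over all genes is not given here. The sums of germline and of oocyte and eggshell markers given above were lower in both unk59 libraries than in either WT library. By edgeR, however, 0 of 11 germline and 0 of 10 oocyte and eggshell markers were called.

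unk49 on OP50 was compared with WT on OP50 and with unk59 on OP50. These comparisons share the unk49 libraries. Against WT, 4 of 7 members were called, where 46.3% of all genes were called, 27.2% higher and 19.1% lower. lipl-3 rose by a log2 fold change of 3.41 ± 0.546 (edgeR adjusted p = 0.00144), lipl-5 by 2.17 ± 0.388 (adjusted p = 0.00230) and lipl-7 by 0.72 ± 0.264 (adjusted p = 0.0488), while lipl-6 fell by 2.07 ± 0.222 (adjusted p = 0.000401). The calls of lipl-3, lipl-5 and lipl-6 held under every alternative in which they were tested, and that of lipl-7 under 5 of 17, being lost on leaving out any library except library 1 of WT on JUb74. lipl-2, with 165.1 and 308.4 CPM in unk49 against 94.3 and 36.5 CPM in WT, had a fitted value of 1.86 ± 0.863 and was not called (adjusted p = 0.109), but it passed without library 1 or 2 of WT on JUb74 (adjusted p = 0.0271 and 0.0324). lipl-1 (-1.16, interval -2.57 to 0.24) and lipl-4 (-0.54, interval -2.03 to 0.95) were not called. The members' median was 0.72 and that of all genes 0.11.

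Against unk59 on OP50, 3 of 7 members were called, where 54% of all genes were called, 30.2% higher and 23.8% lower. lipl-3 was higher in unk49 by 3.92 ± 0.574 (edgeR adjusted p = 0.000655) and lipl-5 by 1.91 ± 0.385 (adjusted p = 0.00295), and lipl-6 was lower by -1.69 ± 0.220 (adjusted p = 0.000386). lipl-7 was not called at 0.27 (interval -0.32 to 0.86), and lipl-2 was not called at 1.6 (interval -0.35 to 3.56). Here too, whether lipl-2 passed turned on WT on JUb74, which is outside the comparison and acts on it only as described above. Oocyte and eggshell markers were called higher in unk49 for 10 of 10 genes against WT and 10 of 10 against unk59. In each comparison 3 of 8 intestine markers were called lower and 0 of 6 yolk markers were called. Muscle markers were called lower for 3 of 5 genes against WT and 2 of 5 against unk59. For neuron markers it was 4 of 6 against WT and 5 of 6 against unk59. The intestine sum of unk49, 17330 to 18890 CPM, overlapped with both other OP50 groups. Its part in the lipl values was not tested.

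**Figure D4:**
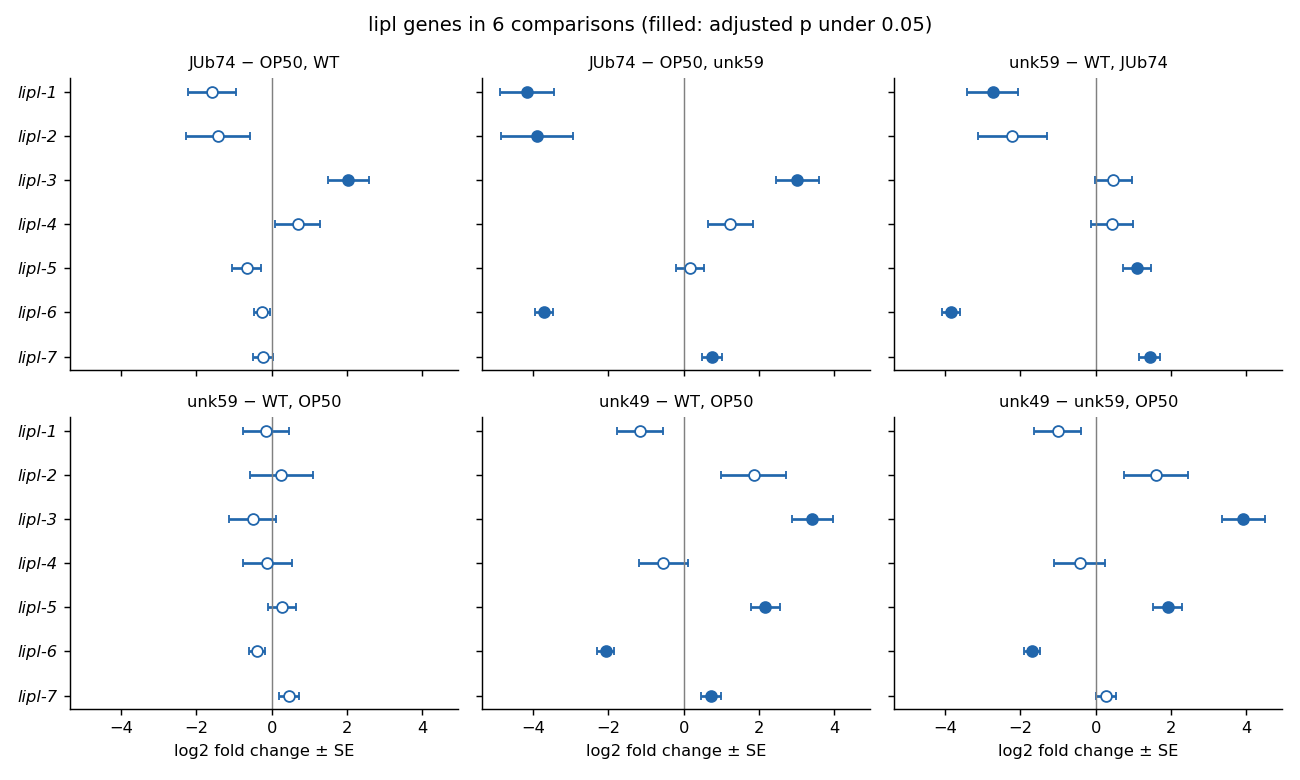
Log2 fold changes with their standard error for the 7 lipl genes tested in 6 comparisons, filled where the edgeR adjusted p was under 0.05. lipl-6 is lower in every comparison that has unk59 on JUb74 or unk49 on OP50 as its first group, from -1.69 to -3.85, and no gene is filled for unk59 against WT on OP50.

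Regulators and partners of the lipl genes were counted from a list of 12 genes. In the diet comparison within unk59, 6 of 12 listed genes were called, 3 in each direction, where 59.8% of all genes were called. lbp-8, the carrier of the LIPL-4 signal, averaged 2.20 CPM on JUb74 and 0.272 CPM on OP50, higher by a log2 fold change of 2.99 ± 0.485 (edgeR adjusted p = 0.00076). The FOXA factor pha-4, which acts in pharynx development and in autophagy genes, was lower by -1.65 (adjusted p = 0.000124), and the nuclear receptor nhr-62 was higher by 1.20 (adjusted p = 0.00794). hlh-30 itself averaged 123.7 CPM on JUb74 and 182.4 CPM on OP50, lower by -0.56 ± 0.169 (adjusted p = 0.0175). Its call was lost without library 2 of unk59 on JUb74 or library 1 of unk59 on OP50, and with at least 10 reads required in every library. mxl-2, the Mlx homolog, was higher by 0.73 and let-363, the TOR kinase, lower by -0.64. The mxl-2 call was lost without either library of unk59 on JUb74 or library 2 of unk59 on OP50, and that of let-363 without library 2 of unk59 on JUb74.

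In WT, 0 of 12 regulators were called between diets by edgeR, where 8.94% of all genes were called, and DESeq2 called 2. An unadjusted edgeR p under 0.05 was found for 6 of 12 regulators and for 3975 of all 15950 genes. On JUb74, unk59 had 4 of 12 called against WT, where 59.0% of all genes were called. All 4 were lower, pha-4 by -1.78, let-363 by -1.09, hlh-30 by -0.73 and daf-15, the Raptor homolog, by -0.69. hlh-30 and daf-15 lost their calls without library 2 of unk59 on JUb74. The diet interaction, called for 43.3% of all genes, was called for 3 of 12 regulators, pha-4 (-1.93, adjusted p = 0.000396), hlh-30 (-1.12, adjusted p = 0.00467) and let-363 (-0.68, adjusted p = 0.0325), and the let-363 call held under 5 of 17 alternatives. hlh-30, not called for the diet in WT, had 217.4 and 193.7 CPM there on JUb74 against 141.9 and 136.8 CPM on OP50. On OP50, unk49 had 4 of 12 called against WT, where 46.3% of all genes were called, with lbp-8 at 1.96, mxl-2 at 1.1, pha-4 at -0.83 and let-363 at -0.60. The lbp-8 call was lost without library 1 of WT, and the let-363 call without either WT library. Against unk59 on OP50, where 54% of all genes were called, the 4 of 12 called regulators were lbp-8 (2.83), mxl-2 (0.88), pha-4 (-0.98) and hlh-30 (-0.69), where mxl-2 lost its call without library 1 of unk49 or library 2 of unk59. unk59 against WT on OP50 had 0 of 12 called by edgeR and by DESeq2, where edgeR called 0.0125% of all genes. An unadjusted edgeR p under 0.05 was found for 2 of 12 and for 1845 of all 15950 genes.

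Neutral lipases outside the lysosome and other fasting-response genes made up a list of 9. For the diet in unk59, 4 were higher and 1 lower, where 59.8% of all genes were called. The largest changes were those of acs-2, an acyl-CoA synthetase (37.8 CPM on JUb74 and 3.86 CPM on OP50 on average, log2 fold change 3.29, edgeR adjusted p = 0.0252), hacd-1, a 3-hydroxyacyl-CoA dehydrogenase (672.2 CPM on JUb74 and 105.9 CPM on OP50, 2.67, adjusted p = 9.7e-05), and fil-1, a fasting-induced lipase (-2.04, adjusted p = 0.0140). The hacd-1 call held under all alternatives. The acs-2 and fil-1 calls were both lost without either library of unk59 on JUb74, and also without library 1 (acs-2) or library 2 (fil-1) of unk59 on OP50. For unk49 against WT on OP50, 4 were higher and 1 lower, where 46.3% of all genes were called. cpt-3, a carnitine palmitoyltransferase homolog, was called higher, with 1.74 CPM in unk49 and 0.0454 CPM in WT on average, where the WT level rests on 1 read in each library. lid-1, the co-activator of adipose triglyceride lipase, was higher by 1.46 (adjusted p = 0.000827) and atgl-1, that lipase, by 1.07 (adjusted p = 0.00527), and the atgl-1 call was lost without library 1 of WT. For unk59 against WT on JUb74, 3 were higher and 1 lower, where 59.0% of all genes were called. hosl-1, the hormone-sensitive lipase homolog, was lower by -1.18, lid-1 was higher by 1.16 and hacd-1 by 1.07, and all of these calls held under every alternative.

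Of 21 v-ATPase genes, the diet change in unk59 called 3 higher and 2 lower and unk59 against WT on JUb74 also 3 and 2, against 59.8% and 59.0% of all genes, and unk49 against WT on OP50 called 2 higher and 6 lower, against 46.3%. vha-18, a subunit H gene, had the largest change in each, with 37.2 CPM in unk59 on JUb74, 0.501 CPM in WT on JUb74, 55.2 CPM in unk49 on OP50, 1.22 CPM in unk59 on OP50 and 3.60 CPM in WT on OP50 on average. It was higher by 4.92 on JUb74 in unk59 (edgeR adjusted p = 3.98e-05), by 6.21 in unk59 against WT on JUb74 (adjusted p = 1.99e-05) and by 3.93 in unk49 against WT (adjusted p = 0.000247). Genes of the membrane subunit a followed. vha-7 was higher by 1.78, 1.20 and 0.97 in these comparisons, vha-5 by 1.03 for the diet in unk59, vha-6 was lower by -0.84 in unk59 against WT on JUb74 and unc-32 by -0.90 in unk49 against WT. On JUb74 the vha-7 call was lost without library 1 of WT, and the vha-6 call without that library (-0.36) or library 2 of unk59. In unk49 the vha-7 call was lost without library 1 of unk49 (0.37), library 1 of WT on OP50 or library 2 of unk59 on JUb74.

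Of 26 genes for lysosomal membrane proteins and hydrolases, 7 were higher and 8 lower for the diet in unk59, 9 higher and 6 lower in unk59 against WT on JUb74, and 6 higher and 1 lower in unk49 against WT on OP50, against 59.8%, 59.0% and 46.3% of all genes called. For the diet in unk59 the largest changes were those of asm-3, an acid sphingomyelinase (1.31 CPM on JUb74 and 84.4 CPM on OP50 on average, -6.01, edgeR adjusted p = 0.00773), gba-2, a glucocerebrosidase (-3.49, adjusted p = 0.0141), and cln-3.3, a homolog of the lysosomal membrane protein CLN3 (-3.32, adjusted p = 0.000132). The asm-3 call was lost without library 2 of unk59 on JUb74, the gba-2 call without either library of unk59 on JUb74 or library 2 of unk59 on OP50. In unk59 against WT on JUb74, ncr-2, an NPC1 homolog, was higher by 5.22 (adjusted p = 0.000307), asm-3 lower by -4.02 (adjusted p = 0.0339) and gba-2 by -3.67 (adjusted p = 0.0111). Without library 1 of WT on JUb74, asm-3 was -0.22 and gba-2 was -1.48, and neither was called. The asm-3 call held under 7 of 17 alternatives and was lost without any library of unk59 on JUb74, unk49 or WT on OP50, and the gba-2 call was lost without either library of unk59 on JUb74. In unk49 against WT on OP50, gba-4, a further glucocerebrosidase, was higher by 3.59 (adjusted p = 0.00141), asah-1, the acid ceramidase, by 3.01 (182.6 CPM in unk49 and 22.6 CPM in WT, adjusted p = 0.000158) and ppt-1, a palmitoyl-protein thioesterase, by 1.30 (adjusted p = 0.00988). The ppt-1 call was lost without library 2 of unk49 or either library of WT.

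Among 25 autophagy genes the diet change in unk59 called 7 higher and 4 lower, unk59 against WT on JUb74 called 7 higher and 7 lower, and unk49 against WT on OP50 called 10 higher and 3 lower, against 59.8%, 59.0% and 46.3% of all genes called. lgg-1, an Atg8 family protein of the autophagosome membrane, averaged 703.0 CPM in unk59 on JUb74, 258.2 CPM in WT on JUb74 and 305.1 CPM in unk59 on OP50. It was higher by 1.20 for the diet in unk59 (edgeR adjusted p = 0.00200) and by 1.45 for unk59 against WT on JUb74. lgg-2, its paralog, was higher by 1.28 for the diet in unk59 and by 1.58 in unk49 against WT on OP50. epg-2, an adaptor for autophagy of protein aggregates, was lower by -1.12 for the diet in unk59 and by -1.10 in unk59 against WT on JUb74. epg-5, needed for fusion of autophagosomes with lysosomes, was lower in unk59 than in WT on JUb74 by -1.64 (adjusted p = 0.000188). lgg-3, the Atg12 homolog, and epg-4, the EI24 homolog, were higher in unk49 than in WT by 1.57 and 1.51. All of these calls held under every alternative. In WT, 0 of 25 autophagy genes were called between diets by edgeR, where 8.94% of all genes were called, and DESeq2 called 1. An unadjusted edgeR p under 0.05 was found for 3 of 25 and for 3975 of all 15950 genes.

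For the diet in WT, 1 of 9 genes of the cytosolic lipase and fasting list was higher, 1 of 21 v-ATPase genes was lower and 3 of 26 lysosomal genes were lower, where 8.94% of all genes were called. Those called were hacd-1 (1.16), vha-18 (-2.84), ncr-2 (-3.86), gba-4 (-2.51) and asah-1 (-0.99), and each lost its call without library 2 of WT on JUb74 and without either library of WT on OP50, some also without other libraries. For unk59 against WT on OP50, edgeR called 1 of 26 lysosomal genes, asah-1 (-1.70 ± 0.175, adjusted p = 0.0431), and 0 of 9 fasting, 0 of 21 v-ATPase and 0 of 25 autophagy genes. Of all genes, 0.0125% were called by edgeR in this comparison. At an unadjusted edgeR p under 0.05 the last 3 lists had 0, 1 and 2 genes, against 1845 of all 15950 genes, and DESeq2 called 0, 1 and 1. The asah-1 call was lost on leaving out any library of WT or of unk59 on JUb74, or library 1 of unk59 on OP50. For unk49 against unk59 on OP50, where 54% of all genes were called, the counts were 3 higher and 1 lower of 9 fasting genes, 2 and 12 of 21 v-ATPase genes, 6 and 1 of 26 lysosomal genes and 11 and 2 of 25 autophagy genes. For the interaction, where 43.3% of all genes were called, they were 2 positive and 1 negative of the fasting genes, 2 and 1 of the v-ATPase genes, 8 and 4 of the lysosomal genes, and 1 and 2 of the autophagy genes.

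The genes whose levels followed each lipase most closely over the 10 libraries are given as a description. Pearson's r of log2 CPM was taken with each of 9863 or 9864 named genes and carries no p, since the 10 points share 5 groups. lipl-2 was followed by nuc-1, a lysosomal DNase II, at r = 0.995, by T05C3.6 at 0.986 and by spp-5, a saposin-like antibacterial protein, at 0.985. nuc-1 had 41.8 and 40.7 CPM in unk59 on JUb74, 131.0 and 41.9 CPM in WT on JUb74, 233.8 and 379.1 CPM in unk49 on OP50, 127.1 and 246.6 CPM in unk59 on OP50, and 218.2 and 135.8 CPM in WT on OP50, and it shared the unequal libraries of lipl-2 in 4 of the groups. lipl-1 was followed by C33G3.4 (0.985), by asp-14, an aspartyl protease (0.980), and by C32H11.4 (0.978). lipl-6 was followed by grd-1, a hedgehog-related protein (0.995), F18F11.4 (0.994) and F44E2.4 (0.993). The genes for lipl-7 were zig-7 (0.973), spp-22 (0.967) and mig-18 (0.963), and those for lipl-5 were homt-1 (0.953), npp-18 (0.937) and Y47D3A.14 (0.935). The closest genes to the low-level lipl-3 were R05D3.12 (0.931), slfl-5 (0.931) and Y37D8A.4 (0.924). Those to lipl-4, also at a low level, were F41B4.3 (0.944), nlp-3 (0.920) and C14B1.3 (0.919).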

How the data were processed

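Whole L4 worms of 5 groups were represented by 10 gene count tables, 2 for each GEO sample. The deposited values are raw counts of read pairs per gene without normalization, in the layout that the STAR aligner writes. Per the submitters' processing notes, STAR 2.7.10, DESeq2 and the WBcel235 build were named. The labels' protocols give TRIzol extraction and a strand-specific library read as pairs of 100 bases, but each strand column held near equal parts of a gene's reads (median 49.8% to 50.1%), so the unstranded column was used. The 4 summary rows stayed out of library sizes. They held 2.02% to 2.61% (unmapped), 2.28% to 3.49% (multimapping), 0.350% to 0.537% (outside genes) and 1.72% to 1.85% (ambiguous) of 23666824 to 24367519 pairs. A further count table (1 file) belongs to none of the listed samples and was left out.

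Whether both tables of a GEO sample come from separate cultures is not stated in the labels. Their counts differed by a chi-square of 19.8 to 88.9 per degree of freedom, above sampling noise, so each entered as a library (n = 2), and p-values measure only the spread between these libraries, which may be technical. One edgeR quasi-likelihood model (edgeR 4.0.16, limma 3.58.1, R 4.3.3, TMM scaling, filterByExpr, robust fit) with a mean per group covered all 10 libraries, giving 7 contrasts over 15950 genes and a common biological coefficient of variation of 23.4%. The standard error was the log2 fold change divided by the square root of F, and 95% intervals used the model's degrees of freedom. The script was run on simulated counts in which few genes changed, only in unk59 on JUb74, with the same spread for every gene. That checks the code and not the error rate in these data, where many more genes were called. Exon lengths and coordinates came from the Ensembl annotation of WBcel235.

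The members, the pathway and marker lists and the tests were chosen with earlier results of these data known. One of 156 listed genes had no ID in the annotation, and its values are not given. Named were all lipl genes, scav-4, every called regulator, the called genes with the largest change of each other list (up to 3, given for the comparisons other than unk49 against unk59 and the interaction) and, for likeness, the 3 genes with the highest correlation (log2 CPM, prior count 2, mean of at least 2). The alternatives were RLE and upper-quartile scaling, no filter, at least 10 reads in every library, DESeq2 1.42.0, the strand column, the library number as a block, and leaving out each library. Leaving out a library of a group outside a comparison acts on it only through the scaling, the filter and the shared estimate of the spread. The floor of 3 counts for a gene at 0 covers counting error only.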

Additional observations from a re-analysis of the deposited data

Results flagged for a closer look

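For 2 of the 7 members tested the response to JUb74 differed between genotypes by the interaction test, where 43.3% of all genes were called. lipl-6 had an interaction of -3.46 on the log2 scale (edgeR adjusted p = 0.000129), with 1.28 and 1.44 CPM in unk59 on JUb74, 18.3 and 21.0 CPM in WT on JUb74, 16.03 and 19.9 CPM in unk59 on OP50, and 21.0 and 25.7 CPM in WT on OP50. lipl-1 had an interaction of -2.59 (adjusted p = 0.0440). Over its alternatives the adjusted p of lipl-1 ran up to 0.189. In the same interaction all 11 germline markers were called in the positive direction, and their part in both values was not tested. Groups of 2 libraries were too small for a check of single outlying libraries.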

How the results depend on the processing

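Each value was recomputed under 7 other settings and on leaving out each of the 10 libraries. Of the counts, 185 stayed within 1.5 times, 46 were lower and 7 higher. Of the members' fold changes, 734 kept direction and side of the threshold, 49 lost and 19 gained a call and 17 changed sign, all 17 for values not called. Of the pathway values, computed under alternatives chosen after seeing the data, 1353 of 1497 gene values and 522 of 595 list counts kept theirs. The cause of these changes was not tested except where noted.

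The number of members called for the diet in WT was 0 with RLE scaling, upper-quartile scaling, at least 10 reads in every library (where lipl-3 was not tested) or the replicate block, and 2 with DESeq2. With no filter it was 2 for unk59 against WT on JUb74 and 1 for the interaction. Leaving out a library gave 0 to 1 members for the diet in WT, 3 to 6 for the diet in unk59 and 1 to 4 for the interaction.

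Over all genes, the diet in WT called 1426 genes, with 429 at 10 reads in every library (fewer genes tested), 2180 by DESeq2, 912 in the strand column and 579 with the replicate block. The diet in unk59 called 6194 and the interaction 4365 at 10 reads in every library. unk59 against WT on OP50 called 2 genes, with 1 under RLE scaling, 102 with no filter, 7 at 10 reads in every library, 432 by DESeq2, 0 in the strand column and 0 with the replicate block. Leaving out a library gave 13 to 1921 genes for the diet in WT, 0 to 409 for unk59 against WT on OP50 and 4141 to 7540 for unk49 against WT on OP50.

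For lipl-4 the sign turned in the strand column to 0.075 for unk49 against WT and 0.26 for unk49 against unk59. On leaving out a library, lipl-4 ranged over -0.65 to 1.30 for the diet in WT, -0.18 to 1.67 for unk59 against WT on JUb74, -0.066 to 1.87 for the interaction and -0.80 to 0.10 for unk49 against unk59. lipl-5 ranged over -0.047 to 0.39 for the diet in unk59 and -1.15 to 0.025 for the diet in WT, and lipl-7 over -0.75 to 0.048 for the diet in WT. For unk59 against WT on OP50 the ranges were -0.99 to 0.38 for lipl-1, -0.53 to 1.1 for lipl-2, -1.06 to 0.42 for lipl-3, -0.64 to 0.26 for lipl-4 and -0.21 to 0.96 for lipl-5.

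The labels give no replicate numbers, and the block used the numbers in the table names, which may not pair cultures. Besides the counts above, the replicate block ended the lipl-3 call for the diet in WT (adjusted p = 0.0844) and the lipl-7 call for unk49 against WT (adjusted p = 0.0502), and changed no other lipl call. Another scaling moved the median of all genes for unk49 against WT to 0.15 (RLE) or -0.09 (upper quartile), against 0.11 with TMM, and turned no called lipl value. lipl-8 had too few reads to test.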
